A study of Homo sapiens with 4 samples.

Results

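The genes described here encode abundant C2H2 zinc finger proteins, named ZNF and a number. Members were chosen by their mean normalized count over all 4 libraries, which had to be at least 500, and by being annotated as protein-coding with a symbol of ZNF followed only by digits. Of 51740 rows in the series, 474 were protein-coding genes with such a symbol, 441 of these were tested, and 171 reached the minimum. The members' levels are therefore a description and not a finding. Just inside the minimum lay ZNF394 with a mean of 500.3, ZNF557 with 503 and ZNF708 with 509, and just outside it lay ZNF672 with 496, ZNF891 with 488 and ZNF155 with 486. The rule used the mean over both fractions and not the fold change, but 72 members had fewer than 500 normalized counts in their lower fraction and so passed through the other one.

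The study asked which RNAs associate with the nuclear and with the cytoplasmic poly(A) binding protein. The fractions described here were sequenced to compare that association with where RNAs reside in the cell. HEK293T, a human embryonic kidney cell line, was wildtype and crosslinked with formaldehyde in all groups, and was split into nuclei and cytoplasm, with 2 biological replicates of each fraction. Every library was made from 400 ng of ribosome-depleted RNA with a stranded kit and read from both ends for 100 nt, so that values do not compare amounts per cell. Fold changes are relative to the size factors the authors used. The authors counted reads over exons and introns together. The fractions behaved as labelled for nuclear long non-coding RNAs, with a log2 fold change, cytoplasmic over nuclear, of -3.47 ± 0.13 (SE) for MALAT1 and -3.09 ± 0.13 for NEAT1.

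Zinc finger proteins of this class fold short modules around a zinc ion held by a pair of cysteines and a pair of histidines, and arrays of such modules read DNA. Many carry an N-terminal KRAB domain, which recruits the corepressor TRIM28 and with it histone methylation and heterochromatin, above all at transposable elements. The genes expanded by duplication, and many lie in clusters on chromosome 19. Some family members have taken other roles, in splicing, at ribosomes or at the spindle.

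To show how alike members can be in sequence, the coding bases of fingers 2 and 3 are given for 2 pairs of related genes (GENCODE 44 annotation, hg38). The codons of the zinc-binding cysteines and histidines are in capitals. ZNF148 lies on the minus strand of chromosome 3, with finger 2 at chr3:125277730-125277792 and finger 3 at chr3:125234250-125234312. ZNF281 lies on the minus strand of chromosome 1, with finger 2 at chr1:200408773-200408835 and finger 3 at chr1:200408689-200408751.
ZNF148 finger 2: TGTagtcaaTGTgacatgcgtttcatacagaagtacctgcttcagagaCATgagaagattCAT
ZNF281 finger 2: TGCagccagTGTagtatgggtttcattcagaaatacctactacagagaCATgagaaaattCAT
ZNF148 finger 3: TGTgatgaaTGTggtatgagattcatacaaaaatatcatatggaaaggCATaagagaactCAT
ZNF281 finger 3: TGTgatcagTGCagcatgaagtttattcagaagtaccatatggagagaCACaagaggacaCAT
Of 63 bases, 51 were the same between both genes in finger 2 and 46 in finger 3, and of 21 encoded residues 19 and 18 were the same. In ZNF281 the fingers are 21 bases apart within 1 exon, whereas in ZNF148 they lie in separate exons with 43417 bases of genome between them.

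The second pair, ZNF417 and ZNF587, shows where reads cannot be told apart. ZNF417 is on the minus strand, with finger 2 at chr19:57909492-57909554, and ZNF587 on the plus strand, with finger 2 at chr19:57859136-57859198.
ZNF417 finger 2: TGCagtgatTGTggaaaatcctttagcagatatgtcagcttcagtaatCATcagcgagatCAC
ZNF587 finger 2: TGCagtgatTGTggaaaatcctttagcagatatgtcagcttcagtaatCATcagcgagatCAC
All 63 bases were the same, as they were in finger 3. Of the 100-base words in the annotated transcript of ZNF417, 21.7% also occurred in another gene, and of those of ZNF587, 14.7%. No word was shared by 151 of the 171 members, and 10 members shared over 1% of theirs.

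Members fell on both sides of the comparison. In the authors' deposited DESeq2 test, with calls made where the adjusted p did not exceed 0.01, 61 members were higher in the cytoplasmic fraction (35.7%) and 72 were higher in the nuclear fraction (42.1%), and 38 did not pass. Over all 23333 tested genes, 25.9% were called cytoplasmic and 26.5% nuclear, 52.4% in all. Against the 8026 other protein-coding genes with a mean of at least 500, of which 46.9% were cytoplasmic and 34.2% nuclear, the members' shares were lower for the cytoplasm and higher for the nucleus. No test of that difference was run. The median log2 fold change was -0.09 over the members, with quartiles of -1.04 and 0.85, against -0.12 over all tested genes and 0.26 over those other protein-coding genes. The range over the members was -3.13 to 3.19, with standard errors of 0.11 to 0.19.

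**Figure D1:**
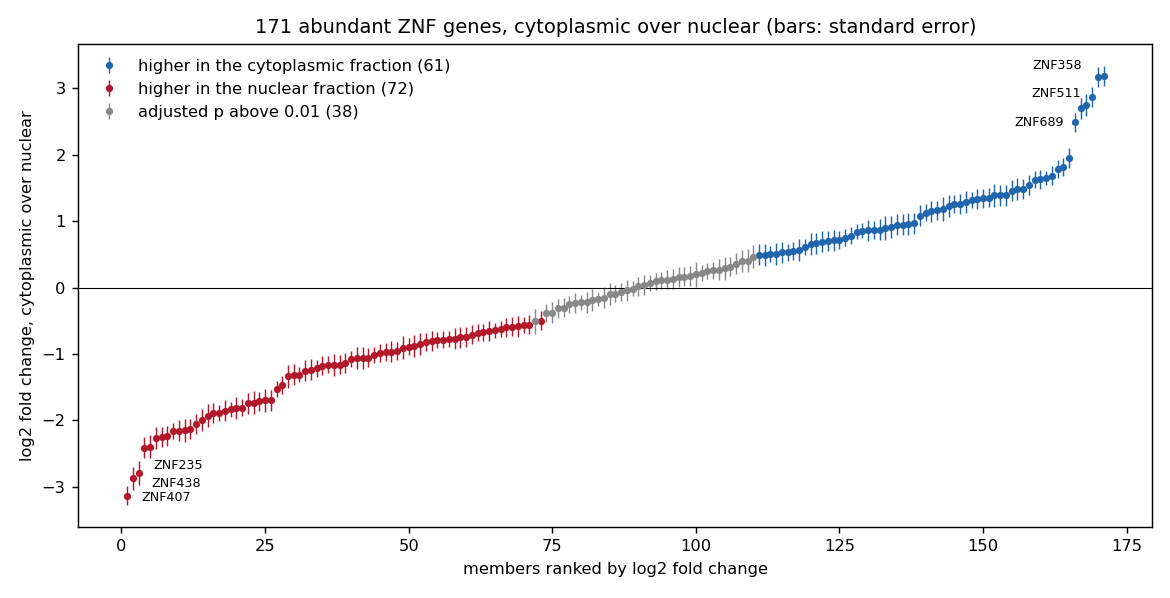
Log2 fold change, cytoplasmic over nuclear, of each of the 171 members in order of that value, with bars of 1 standard error. The values run from -3.13 for ZNF407 to 3.19 for ZNF358 without a gap around 0, and the 38 members that did not pass the test lie around 0.

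Counts of single libraries were recovered from the deposited values for all members. Each library held between 145525 and 290969 counts on the members, and no member had fewer than 120 counts in any library. Replicates differed little: the log2 difference between both nuclear libraries had an SD of 0.15 over members and a range of -0.48 to 0.41, and that between both cytoplasmic libraries an SD of 0.16 and a range of -0.33 to 0.50. Both libraries of one fraction lay above both of the other for 76 members on the cytoplasmic side and 83 on the nuclear side, and 12 overlapped. Such separation was found for 85.9% of all genes with recovered counts. Every one of the 133 called members was separated in this way. On the recovered counts, limma called 62 members cytoplasmic and 74 nuclear at the same threshold, beside 28.1% and 32.7% of all genes fitted, and its calls held all 133 members that the authors' test called.

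The direction depends on the scale. The normalized counts of the cytoplasmic fraction summed to more than those of the nuclear fraction, and with both set to the same total every log2 fold change was lower by 0.66. The 280 genes with a mean over 8000 held 42.6% of the cytoplasmic and 14.6% of the nuclear sum, and with totals set equal over the other genes alone, an alternative chosen after seeing the data, the shift was 0.089. With all genes in the totals, which is meant by equal totals here and below, 32 members were called cytoplasmic and 102 nuclear. The cytoplasmic share of the calls was then 23.9% in place of 45.9%. Over all tested genes that share fell as well, from 49.5% to 29.7%, so the fall is not particular to the members. With the genes over 8000 left out of the totals, 57 members were cytoplasmic and 76 nuclear. Members with at least 500 normalized counts in both fractions numbered 99, and of these 25 were cytoplasmic and 41 nuclear on the authors' scale. Of the 72 that reached 500 in only 1 fraction, 36 were cytoplasmic and 31 nuclear.

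The most cytoplasmic transcript was that of ZNF358. Its normalized counts were 183 and 185 in the nuclear libraries (the deeper library first, here and below) and 1625 and 1724 in the cytoplasmic libraries. That is a log2 fold change of 3.19 ± 0.15 (SE; adjusted p = 1.01e-98), or 9.11-fold. ZNF581 was alike, with 201 and 207 in the nuclear and 1729 and 1960 in the cytoplasmic libraries (3.18 ± 0.15, adjusted p = 6.42e-98). In neither gene did the fractions come near each other, but both reached the minimum mean only through their cytoplasmic libraries. ZNF511, ZNF428, ZNF689, ZNF747 and ZNF48 also reached it only in that way. ZNF511 rose from 209 and 249 to 1592 and 1749 (2.87 ± 0.15), and ZNF428 from 153 and 178 to 1164 and 1061 (2.75 ± 0.17). ZNF768, whose protein binds a motif within mammalian interspersed repeats, had 511 and 712 nuclear and 4185 and 3737 cytoplasmic normalized counts (2.70 ± 0.15, adjusted p = 2.66e-68). Its nuclear replicates were the least alike among these genes, yet the gap between the fractions was far wider than that between replicates.

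The other 5 of the 10 most cytoplasmic members were ZNF689 (2.49 ± 0.14), ZNF747 (1.96 ± 0.15), ZNF629 (1.81 ± 0.13), ZNF770 (1.79 ± 0.13) and ZNF48 (1.69 ± 0.15). ZNF768, ZNF689, ZNF747, ZNF629 and ZNF48 all lie between 30 and 35 Mb of chromosome 16. Cytoplasmic members with a log2 fold change over 1 numbered 33.

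At the nuclear end stood ZNF407, a gene of 456 kb of intron. It had 3285 and 2878 normalized counts in the nuclear and 342 and 360 in the cytoplasmic libraries, a log2 fold change of -3.13 ± 0.14 (adjusted p = 2.43e-110), which is 8.77-fold higher in the nucleus. ZNF438 followed with 1421 and 1346 against 218 and 159 (-2.87 ± 0.17), and ZNF235 with 1224 and 1046 against 164 and 164 (-2.79 ± 0.18). Nuclear libraries were thus high and cytoplasmic libraries low without overlap for each of them. Of the 10 most nuclear members, only ZNF536 and ZNF721 had at least 500 normalized counts in both fractions. The others reached the minimum mean only through their nuclear libraries. ZNF536, a repressor of neuronal differentiation with 478 kb of intron, had 4715 and 3542 against 852 and 897 (-2.24 ± 0.15). ZNF827, which brings the NuRD complex to telomeres in cells that extend them by recombination, had 1634 and 1493 against 342 and 315 (-2.25 ± 0.15). The other members of this group of 10 were ZNF519 (-2.41 ± 0.16), ZNF682 (-2.40 ± 0.18), ZNF782 (-2.27 ± 0.17), ZNF721 (-2.16 ± 0.12) and ZNF521 (-2.15 ± 0.16). Nuclear members with a log2 fold change below -1 numbered 44.

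**Figure D2:**
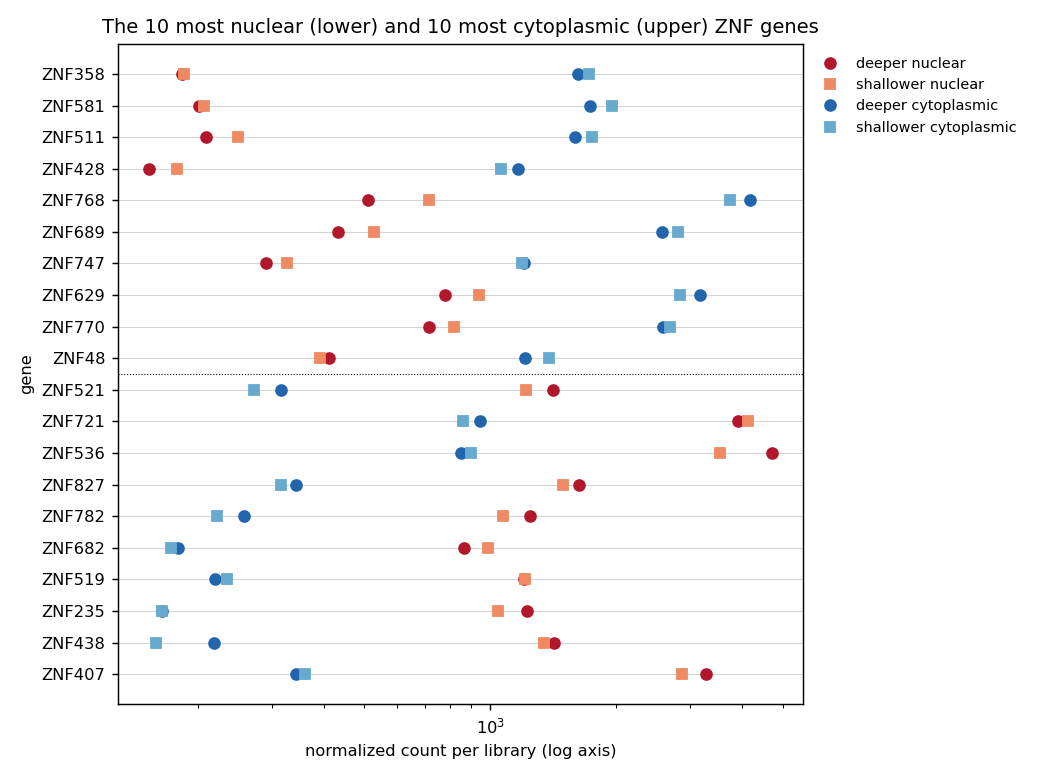
Normalized count in each of the 4 libraries (log axis) for the 10 most nuclear and the 10 most cytoplasmic members, with circles for the deeper and squares for the shallower library of a fraction. Both nuclear points and both cytoplasmic points lie apart for each of the 20 genes, as for ZNF358 with 183 and 185 against 1625 and 1724. Only ZNF768, ZNF629, ZNF770, ZNF536 and ZNF721 had at least 500 in both fractions. The others passed the minimum only through the fraction where they are high.

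Near the middle, ZNF318, ZNF121, ZNF850, ZNF500 and ZNF562 had the log2 fold changes nearest 0, from -0.06 to 0.04. ZNF121 had 2394 and 2443 normalized counts in the nuclear and 2398 and 2367 in the cytoplasmic libraries (-0.02 ± 0.11, adjusted p = 0.886). Their fractions overlapped. With equal totals the log2 fold changes of these 5 ran from -0.73 to -0.63, and all passed the test on the nuclear side, so that their place near 0 holds only on the authors' scale.

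Among the members with the highest means were genes of very different log2 fold change. ZNF638, whose protein takes part in splicing and in the silencing of unintegrated retroviral DNA, had 9439 and 8964 normalized counts in the nuclear and 2777 and 2387 in the cytoplasmic libraries (-1.83 ± 0.12, adjusted p = 1.57e-55). ZNF609, a regulator that works with cohesin loading and Integrator factors, had 7043 and 6466 against 2773 and 2673 (-1.31 ± 0.11). ZNF207, also known as BuGZ, a spindle and kinetochore protein, had 5137 and 5619 against 4739 and 4814 (-0.17 ± 0.11, adjusted p = 0.166). Both nuclear libraries of ZNF207 lay above both cytoplasmic ones, but the difference did not pass the test. With equal totals it was -0.83 and passed on the nuclear side (adjusted p = 5.33e-14). ZNF664 had 2222 and 2144 nuclear and 6709 and 6998 cytoplasmic normalized counts (1.65 ± 0.11), and ZNF598 had 2809 and 2924 against 5041 and 5243 (0.84 ± 0.11, adjusted p = 2.08e-14). For ZNF598, the ubiquitin ligase of collided ribosomes, the difference was 0.18 with equal totals and no longer passed (adjusted p = 0.136).

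A list of 35 ZNF genes of known function held 32 members, described here by role. Over all members 35.7% were cytoplasmic and 42.1% nuclear, and over all tested genes 25.9% and 26.5%. The role groups are small and were not tested against these shares. Genes for proteins of RNA, ribosomes or mitosis were split, with 3 cytoplasmic, 2 nuclear and ZNF207 not called on the authors' scale. With equal totals 1 of the 6 was cytoplasmic and 3 were nuclear. ZNF622, a factor for maturation of the large ribosomal subunit, rose from 323 and 358 in the nuclear to 933 and 933 in the cytoplasmic libraries (1.46 ± 0.16). ZNF330, a nucleolar protein, had a smaller difference (0.51 ± 0.16, adjusted p = 0.00346). ZNF326, part of the DBIRD complex that couples transcription and splicing, was nuclear like ZNF638, with 1694 and 1926 against 963 and 909 (-0.95 ± 0.13). The call for ZNF330 was lost when the deeper nuclear or the shallower cytoplasmic library was left out, with limma adjusted p-values of 0.0222 and 0.0104.

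Genes for partners of chromatin enzymes went both ways on the authors' scale, 2 cytoplasmic and 2 nuclear of 5. ZNF644, a partner of the histone methyltransferases G9a and GLP, had 5197 and 5471 normalized counts in the nuclear and 2711 and 2338 in the cytoplasmic libraries (-1.08 ± 0.12). ZNF618, a partner of UHRF2, was at -0.65 ± 0.11. ZNF592 and ZNF687, paralogs that act with ZMYND8, were both higher in the cytoplasm, at 0.61 ± 0.12 and 1.26 ± 0.13. ZNF217, an oncogene product bound to the CtBP and CoREST corepressors, was at 0.17 ± 0.15 (adjusted p = 0.323). With equal totals ZNF592 was at -0.051 and was not called, ZNF217 was nuclear (-0.49, adjusted p = 0.00235), and the group counted 1 cytoplasmic and 3 nuclear.

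Of the 3 genes listed here as KRAB repressors with known targets, ZNF91 alone passed. ZNF91, which silences SVA retrotransposons, had 2122 and 1990 nuclear and 1049 and 820 cytoplasmic normalized counts (-1.14 ± 0.14, adjusted p = 1.54e-14). ZNF274, which brings SETDB1 to other zinc finger genes, was at -0.30 ± 0.14 (adjusted p = 0.0580), and ZNF445, which protects imprinted loci, was at 0.09 ± 0.13 (adjusted p = 0.540). With equal totals all 3 were called nuclear.

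Genes for transcription factors and regulators counted 4 cytoplasmic and 8 nuclear of 14, beside 35.7% and 42.1% of all members. ZNF521 and ZNF423, paralogs that act with EBF factors and each had 27 matches to the C2H2 finger pattern, were both nuclear: ZNF521 had 1412 and 1217 against 317 and 273, and ZNF423 had 1257 and 964 against 546 and 519 (-1.06 ± 0.17). ZNF292, mutated in a neurodevelopmental disorder, had 4266 and 4326 against 1257 and 1060 (-1.89 ± 0.12). ZNF462 (-1.06 ± 0.14), ZNF131 (-0.98 ± 0.14) and the X-linked intellectual disability gene ZNF711 (-0.75 ± 0.16) were also higher in the nucleus. For ZNF711, whose cytoplasmic replicates of 1197 and 848 were far apart, the call was lost without the shallower nuclear library (limma, -0.68, adjusted p = 0.0134). On the cytoplasmic side were ZNF703, a corepressor amplified in luminal breast cancer (1.62 ± 0.13), and ZNF24 (1.35 ± 0.15). ZNF384, a partner in leukaemia gene fusions, and ZNF410, which controls transcription of CHD4, were at 0.32 ± 0.14 and 0.25 ± 0.12 and did not pass.

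Close paralogs could have log2 fold changes of opposite sign. ZNF148, with 137 kb of intron, had 3267 and 3123 normalized counts in the nuclear and 1150 and 1072 in the cytoplasmic libraries (-1.52 ± 0.12, adjusted p = 4.73e-36). ZNF281, with 222 bp of intron, had 277 and 356 in the nuclear and 720 and 718 in the cytoplasmic libraries (1.19 ± 0.18, adjusted p = 1.04e-10). These are the genes whose similar fingers are printed above, both factors for GC-rich promoters. In other pairs the paralogs lay on the same side, as for ZNF503 (1.63 ± 0.14) and ZNF703, with 0.73 and 0.922 kb of intron, and for ZNF608 (-1.86 ± 0.16) and ZNF609, with 105 and 213 kb. ZNF281 and ZNF503 reached the minimum mean only through their cytoplasmic libraries, and ZNF608 only through its nuclear libraries. These pairs were picked with their values known, reads in introns were counted, and differences within a pair were not tested.

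Of the remaining genes of the list, ZNF146, whose protein consists almost wholly of fingers, was cytoplasmic (0.50 ± 0.12, adjusted p = 0.000105). Without the deeper nuclear library its limma adjusted p-value was 0.0242, and with equal totals its log2 fold change was -0.16. ZNF706 was at -0.10 ± 0.16 and ZNF318, a splicing regulator of immunoglobulin transcripts, at 0.02 ± 0.14.

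**Figure D3:**
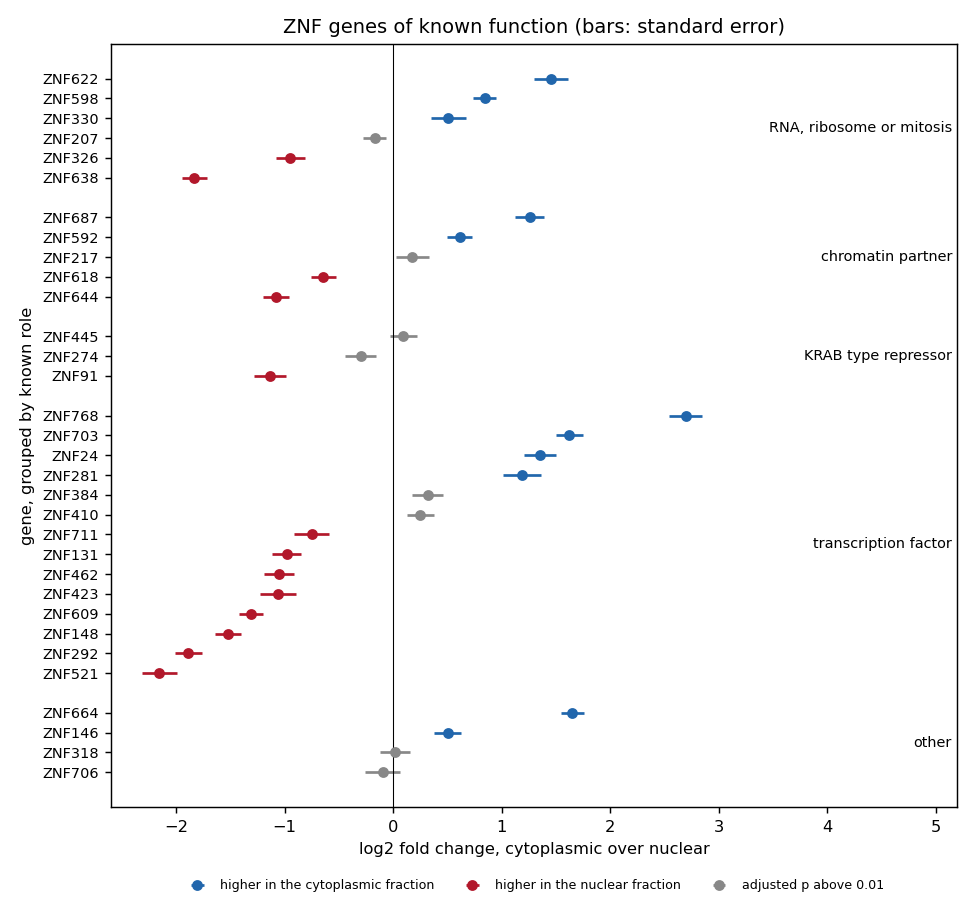
Log2 fold change, cytoplasmic over nuclear, of the 32 members of known function, grouped by role, with bars of 1 standard error. Each of the first 2 groups has members on both sides, from -1.83 for ZNF638 to 1.46 for ZNF622 among the genes of RNA, ribosomes or mitosis.

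Intron length went with the fold change across the members. The Spearman correlation of the log2 fold change with intron length was -0.74 across 171 members, and -0.76 across 8024 other protein-coding genes with a mean of at least 500. Genes are not independent replicates, all points share the same 4 libraries, and reads in introns were counted, so that this is a description without a test. In single pairs of a nuclear and a cytoplasmic library the correlation across members ran from -0.75 to -0.72. Correlations across members were weaker for exonic length (-0.32), the number of introns (-0.18) and the number of fingers (-0.19). GC content of the annotated transcript had a correlation of 0.52 with the log2 fold change and of -0.34 with intron length.

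With the members split by intron length into 4 ranges of 42 or 43 genes, calls moved from one fraction to the other. In the range from 0.222 to 13.1 kb, 36 of 43 members were cytoplasmic and 4 were nuclear, with a median log2 fold change of 1.26. From 13.1 to 27.2 kb, 19 of 42 were cytoplasmic and 7 nuclear (median 0.34), and from 27.2 to 53.6 kb, 5 of 43 were cytoplasmic and 23 nuclear (median -0.68). In the range of the longest introns, up to 478 kb, 1 of 43 was cytoplasmic and 38 were nuclear (median -1.16). With equal totals the counts were 26 cytoplasmic and 6 nuclear in the shortest range and 4 and 20 in the next.

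Other protein-coding genes with a mean of at least 500 had higher medians in each of the same intron length ranges. Their medians were 1.79, 0.91, 0.30 and -0.79, from the shortest to the longest range, in 1805, 1262, 1582 and 3031 genes. In the shortest range, 83.7% of members and 87.1% of the other genes were cytoplasmic, and 9.30% and 4.27% were nuclear. In the next, 45.2% and 69.7% were cytoplasmic, and 16.7% and 10.8% were nuclear. From 27.2 to 53.6 kb, 11.6% and 46.7% were cytoplasmic, and 53.5% and 24.9% were nuclear. In the longest range, 2.33% and 13.5% were cytoplasmic, and 88.4% and 64.8% were nuclear. The shares were thus closest in the shortest range, whereas the medians were closest in the longest range. The members also had lower levels, with a median mean normalized count of 859 against 1414 for the other genes. The part of level in the contrast was not tested.

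**Figure D4:**
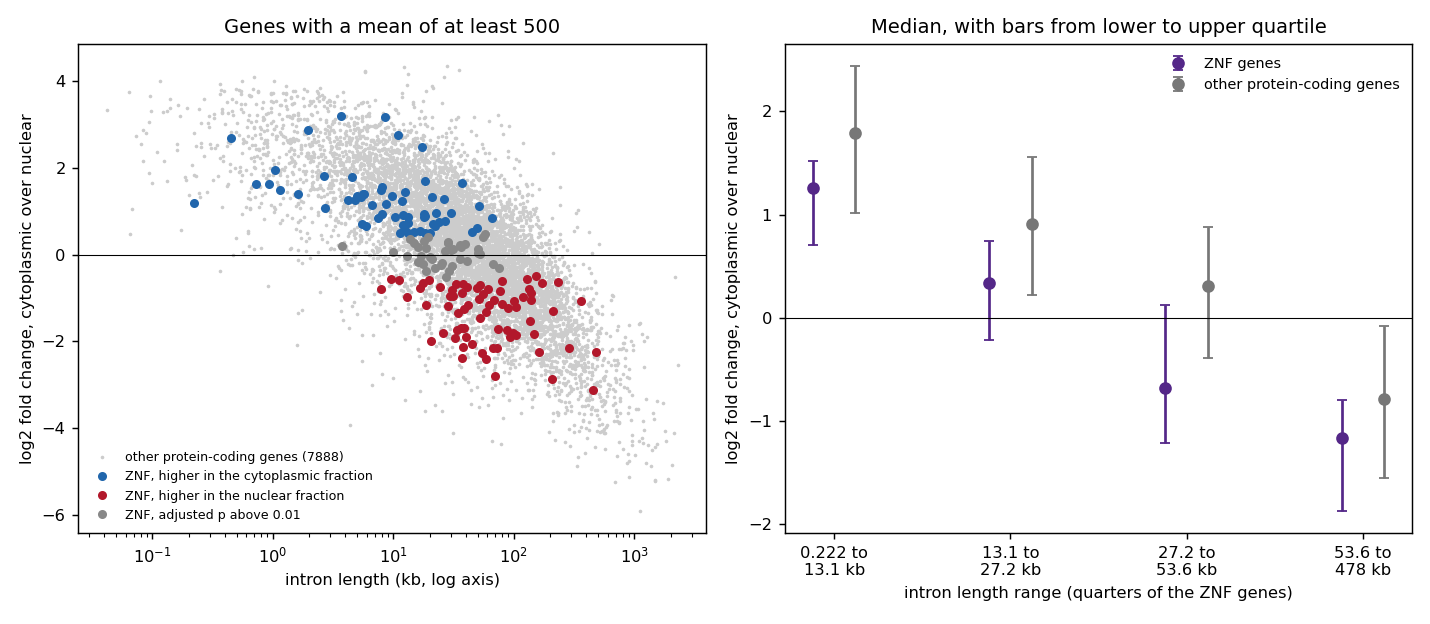
Left, log2 fold change against intron length (log axis) for the members, coloured by call, and for other protein-coding genes with a mean of at least 500 and some intron (grey). Right, medians with bars from the lower to the upper quartile in the 4 intron length ranges, where the members' medians fall from 1.26 to -1.16 and lie below those of the other genes.

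Exceptions to this order were sought only in the shortest and the longest range, and were few there on the authors' scale. ZNF106, with 66.1 kb of intron, was the only cytoplasmic member of the longest range. It had 2087 and 2229 nuclear and 3930 and 3870 cytoplasmic normalized counts (0.85 ± 0.11, adjusted p = 8.62e-14). With equal totals no member of that range was called cytoplasmic, and its highest log2 fold change was 0.19. The 4 nuclear members of the shortest range were ZNF276 (-0.98 ± 0.13), ZNF587 (-0.78 ± 0.13), ZNF417 (-0.58 ± 0.16) and ZNF655 (-0.57 ± 0.12). ZNF587 and ZNF417 are the near copies shown above. ZNF587 had 1799 and 1697 normalized counts in the nuclear and 1026 and 1006 in the cytoplasmic libraries, and ZNF417 had 692 and 695 against 463 and 465. Whether reads in shared sequence were dropped or assigned to either gene is not known here, so their values cannot be taken as independent.

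By position, members on chromosome 16 leaned to the cytoplasm. Of 16 there, 12 were cytoplasmic and 3 nuclear, with a median log2 fold change of 1.39 and a median intron length of 8.88 kb. The shares were 35.7% and 42.1% over all members, and 25.9% and 26.5% over all tested genes. With equal totals 10 of the 16 were cytoplasmic and 4 nuclear, with a median of 0.73. The lean was not tested. In the window from 30 to 35 Mb of chromosome 16 (hg38), 8 of 9 were cytoplasmic, namely ZNF48, ZNF771, ZNF768, ZNF747, ZNF764, ZNF689, ZNF629 and ZNF646, from 0.90 for ZNF771 to 2.70 for ZNF768. Of these, ZNF48, ZNF771, ZNF747, ZNF764 and ZNF689 reached the minimum mean only through their cytoplasmic libraries. ZNF267 in the same window, with 37.3 kb of intron, was nuclear (-0.88 ± 0.17) and reached it only through its nuclear libraries.

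Chromosome 19 held 59 members, of which 21 were cytoplasmic and 24 nuclear, with a median of -0.18. With equal totals these counts were 8 and 35 and the median -0.85. Its windows gave unlike counts. From 20 to 25 Mb, where primate-expanded KRAB genes lie next to the centromere, none of 8 members was cytoplasmic and 7 were nuclear. ZNF430 (-1.93 ± 0.17), ZNF431 (-1.89 ± 0.15), ZNF708 (-1.74 ± 0.17), ZNF100 (-1.26 ± 0.16), ZNF254 (-1.24 ± 0.16), ZNF91 and ZNF714 (-0.68 ± 0.13) were called, and ZNF724 (-0.18 ± 0.16) was not. ZNF431 had 1321 and 1364 normalized counts in the nuclear and 347 and 378 in the cytoplasmic libraries, without overlap. ZNF430, ZNF431, ZNF708 and ZNF100 reached the minimum mean only through their nuclear libraries. So did ZNF724, by little, with a cytoplasmic mean of 499.5. From 55 to 60 Mb, 10 of 18 members were cytoplasmic and 5 nuclear, with a median of 0.60. Some members there, among them ZNF581 and ZNF586, also passed through 1 fraction only. The median intron length was 36.1 kb in the former window and 13.3 kb in the latter. These windows were described with the values known, and no test was made of a difference between them.

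A stretch of letters typical of the KRAB A box was found in the translated canonical coding sequence of 62 members. Of these, 20 were cytoplasmic and 30 nuclear, with a median of -0.40. Of 109 members without it, 41 were cytoplasmic and 42 nuclear, with a median of 0.02. With equal totals the counts were 9 cytoplasmic and 38 nuclear with the stretch, and 23 and 64 without it, where the median was -0.65. ZNF445 is among those without a match, so that a missing match says nothing of the domain. Members had 0 to 36 fingers by the C2H2 pattern, with a median of 9, and 4 had none. The median log2 fold change was 0.22 in 25 members with 0 to 3 fingers, 0.17 in 47 with 4 to 8, -0.28 in 50 with 9 to 12 and -0.38 in 49 with 13 or more. Each of these groups held members called in either fraction.

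**Figure D5:**
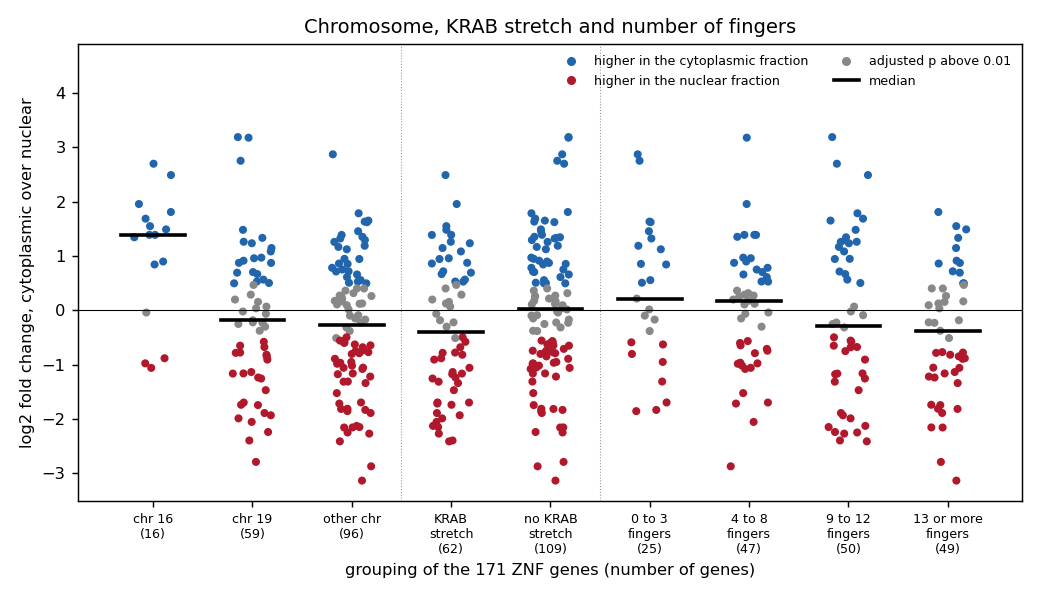
Log2 fold change, cytoplasmic over nuclear, of the members by chromosome, by the KRAB stretch and by number of fingers. Points are genes coloured by call and black lines are medians, such as 1.39 for chromosome 16 and -0.18 for chromosome 19.

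Genes of the corepressor machinery that KRAB proteins call on lay on both sides. All 24 listed genes were tested, and 14 (58.3%) were called cytoplasmic and 6 nuclear, with a median log2 fold change of 0.65, beside the 46.9% and 34.2% of other protein-coding genes given above. With equal totals the list counted 10 cytoplasmic and 10 nuclear genes and a median of -0.01. TRIM28, the KRAB-binding scaffold, was at 1.86 ± 0.12 (adjusted p = 1.37e-57). SETDB1, the histone methyltransferase it recruits, had 1904 and 2044 nuclear and 2836 and 3165 cytoplasmic normalized counts (0.60 ± 0.12). The heterochromatin proteins CBX5, CBX3 and CBX1 were at 1.73 ± 0.11, 1.06 ± 0.12 and 1.05 ± 0.13. MTA2 of the NuRD complex had the highest value of the list (2.01 ± 0.12), while GATAD2B of the same complex had the lowest, with 7152 and 6678 nuclear and 2001 and 1739 cytoplasmic normalized counts (-1.89 ± 0.12). Subunits of one complex thus lay on both sides. Of the HUSH complex, which silences transposable elements, MPHOSPH8 (-0.49 ± 0.16) and PPHLN1 (-1.26 ± 0.12) were nuclear and TASOR (0.01 ± 0.11) was not called.

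Related zinc finger families with the same minimum were small. Of 3 ZSCAN, 4 ZKSCAN and 4 ZFP genes, 5 were called, all cytoplasmic. The highest value was that of ZSCAN29 (1.52 ± 0.14) and the lowest that of ZFP90 (-0.20 ± 0.14, adjusted p = 0.210). Among the other protein-coding genes with that minimum, 46.9% were called cytoplasmic and 34.2% nuclear. Calls with equal totals, where every log2 fold change is lower by 0.66, were not made for these families. ZNF genes below the minimum numbered 270 among those tested. Of these, 60 were cytoplasmic and 64 nuclear, with a median log2 fold change of -0.11, and their standard errors were wider, with a median of 0.24 against 0.15 for the members.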

How the data were processed

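The deposited table holds, per gene, values that the authors computed with DESeq2: a mean normalized count (a signal averaged over 4 libraries), a log2 fold change of cytoplasm over nucleus with its standard error on the log2 scale, a Wald score, a p-value and an adjusted p-value. Per the labels and the study's methods, the authors aligned reads to hg38 with STAR and counted them per gene, exons and introns together, with featureCounts 2.0.2. No table of single libraries was used. Calls used the authors' deposited adjusted p-value over 23333 tested genes, with the threshold of 0.01 that the study set.

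Counts per library were recovered from the deposited values. The lowest means give the size factors, which were 1.34 and 1.19 for the nuclear and 0.853 and 0.755 for the cytoplasmic libraries. For each gene, whole counts were sought that return the deposited mean, log2 fold change and standard error. They were found for 23046 tested genes (98.8%), which hold 68.2% of the summed means, and for all 171 members, whose fold changes were returned within 5.02e-10. The 280 genes with a mean over 8000 were not attempted. In simulated data, 234 of 234 genes were recovered. Recovered counts summed to 12642045 to 21011117 per library. Replicate numbers of the libraries are not known. The p-values rest on 2 biological replicates a fraction and are not set by a gene's own replicate spread alone. For ZNF417, the log2 differences between replicates were -0.007 (nuclear) and -0.006 (cytoplasmic), yet its standard error was 0.16.

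limma 3.58.1 in R 4.3.3 was fitted to log2(normalized count + 1) of the recovered counts as an alternative, with trend. On simulated counts of 23046 genes it called 192 of 200 genes changed by 1 on the log2 scale (96%) and no unchanged gene. Where a fraction is left with 1 library, that library is assumed to vary like the others. Other alternatives were the threshold, the adjustment, 3 scalings, the minimum mean, a minimum change and symbols with letters.

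Gene structure came from GENCODE 44 on hg38, the assembly of the authors but a later annotation, with 99.95% of tested protein-coding genes matched by identifier. Intron length is the span less the union of exons. Fingers and the KRAB stretch were sought in translated canonical coding sequences, since protein sequences were not used here. Named genes were the 10 called members with the largest change in each direction, 5 with the highest mean, 5 nearest 0, 3 on either side of the minimum and a list by function. Paralogs, exceptions and genes of chromosome windows were named after their values were seen. The members and lists were chosen with earlier results of these data known.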

Additional observations from a re-analysis of the deposited data

How the results depend on the processing

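No paired analysis was possible because the replicate number of each recovered library is not known. The counts of 61 cytoplasmic and 72 nuclear members became 32 and 102 with equal library totals, 95 and 112 of 282 genes with a minimum mean of 250, 19 and 30 of 63 with a minimum of 1000, and 25 and 41 of 99 members with at least 500 in both fractions. They stayed within 47 to 66 and 60 to 81 at a threshold of 0.05, with the Bonferroni adjustment, centred on protein-coding genes, with equal totals over genes with a mean of at most 8000, with a minimum change, with symbols with letters, in limma with both libraries of each fraction, and without members that share sequence. Leaving out each library in turn, limma gave 0 to 63 cytoplasmic and 0 to 74 nuclear members. The count of 0 arose without either nuclear library when all genes were fitted (127 and 133 members had an unadjusted p under 0.05), and with genes of a mean of at least 10, a minimum chosen after seeing the data, the same omissions gave 54 and 60 cytoplasmic and 70 and 71 nuclear members.

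The median log2 fold change of -0.09 was -0.75 with equal totals, -0.20 centred on protein-coding genes, -0.18 with equal totals over genes with a mean of at most 8000, -0.25 with a minimum mean of 1000, -0.16 with symbols with letters and -0.17 for members with at least 500 in both fractions. It ran from -0.11 to -0.07 when each library was left out. As Pearson correlations, the values were -0.72 for log10 intron length, -0.42 for log10 exonic length and -0.18 for the number of fingers. Of 57 named members, 11 changed sign with equal totals, to -0.35 for ZNF384, which was not called on either scale, and to -0.65 for ZNF318, -0.63 for ZNF850, -0.0033 for ZNF394, -0.10 for ZNF557, -0.051 for ZNF592, -0.16 for ZNF330, -0.16 for ZNF146, -0.41 for ZNF410, -0.49 for ZNF217 and -0.57 for ZNF445. Centring on protein-coding genes turned the sign of ZNF318, ZNF850 and ZNF445, and leaving out 1 library turned that of ZNF318, ZNF850, ZNF500, ZNF562 and ZNF706 in some fits, all values that did not pass the test there or in the main comparison. Calls for ZNF557 and ZNF330 were also lost when centred, and ZNF274 was then called. With equal totals over genes with a mean of at most 8000, ZNF557 and ZNF330 lost their calls (adjusted p = 0.0104 and 0.0177), and ZNF318 and ZNF850, not called, changed sign. The call for ZNF557 was lost without the deeper nuclear library (limma adjusted p = 0.0144). The causes were not tested. With 2 libraries a fraction, the spread between replicates is itself poorly known, and at the lowest count of 120 counting error is part of it.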
